A study of Mus musculus with 2 samples.

Results

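Peptide loading of major histocompatibility complex class II (MHCII) was followed through 7 genes, chosen by symbol from the 27998 genes of the deposited tables, and all 7 were present in both libraries. They are H2-DMa, which encodes the α chain of the peptide exchange factor H2-DM, H2-DMb1 and H2-DMb2, which encode its β chains, H2-Oa and H2-Ob, which encode the chains of its inhibitor H2-O, and the transcriptional regulators Ciita and Rfx5. Their transcripts were compared across marker-gated B cells, dendritic cells (DCs), monocytes and macrophages (MØs) of perigonadal visceral adipose tissue (VAT), in 1 library from calorically restricted (CR) mice and 1 library from obese mice. Both libraries held viable CD45+ cells sorted by flow cytometry.

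By the methods of the study, both groups were C57BL/6J male mice bought at 6 weeks of age and acclimated for 2 weeks. Both then ate a diet with 60% of its energy from fat and 0.3% cholesterol for 24 weeks, with a weekly injection of 5 mg/kg of an antisense oligonucleotide against the low-density lipoprotein receptor, so that the obese mice carried this treatment too. The CR mice were afterwards held for 2 further weeks at 70% of their free intake of the same diet, while the obese mice were harvested at 24 weeks. GEO's diet label for the CR sample speaks of a life-long restriction, and the account in the methods is followed here. The number of mice behind each library was not found in the sources used here, and with 1 library per condition no p-value is given.

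MHCII molecules leave the endoplasmic reticulum with their groove filled by the invariant chain (Cd74), of which the CLIP fragment stays behind after proteolysis in late endosomes. H2-DM catalyses the release of CLIP and the exchange of weakly bound peptides, and H2-O binds H2-DM and restrains it, chiefly in B cells and some DCs. CIITA is the coactivator that switches on MHCII and its accessory genes, and it acts on promoters held by the RFX complex (of which RFX5 is a subunit) at the X box together with NF-Y at the Y box. In adipose tissue, MHCII is carried by B cells, DCs and many MØs, which present antigen to the local CD4+ T cells.

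The CR library held 19696476 unique molecular identifiers (UMIs, each a tagged RNA molecule) in 3562 barcodes, and the obese library held 42948242 UMIs in 5795 barcodes. After filters on gene number, mitochondrial share and UMI total, 2987 CR and 5262 obese cells were kept, with medians of 4802 and 6740.5 UMIs. Cells were gated by counting markers, none of which is an MHCII gene, and each went to the met gate with the highest share of its markers. Where a met gate of another lineage came within 20 percentage points, the cell was left out as mixed (6.19% of CR and 7.66% of obese cells). Cells that met several gates of 1 lineage, such as monocytes and MØs, were kept. Fcgr4-high MØs held a median of 7 C1q MØ markers in both libraries, the minimum of that gate. The gates held 212 CR and 172 obese B cells, 200 and 498 DCs, 103 and 226 monocytes, and 1061 and 2731 MØs. The DCs consisted of type 1 (74 CR, 254 obese), type 2 (97 and 188) and migratory cells (29 and 56). The monocytes consisted of classical (48 and 146) and patrolling cells (55 and 80). The MØs consisted of C1q-positive cells (464 and 2486) and Fcgr4-high cells (597 and 245), and the C1q-positive cells were split into resident, lipid-associated and other cells. Ptprc, which encodes CD45, had a UMI in 62.3% of CR and 66.9% of obese B cells and in 87.4% and 76.3% of MØs, against 12.6% and 14.3% of gated fibroblasts. The libraries shared 28 barcodes.

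The 5 H2 genes lie in 162075 bases of chromosome 17 and all read in the same direction on GRCm38. H2-Oa occupies chr17:34092340-34095234 and is followed by H2-DMa at chr17:34119541-34139101, H2-DMb2 at chr17:34143307-34151555, H2-DMb1 at chr17:34153072-34160230 and H2-Ob at chr17:34238903-34254414. The β chain genes H2-DMb2 and H2-DMb1 are neighbours with 1516 bases between them. Ciita lies at chr16:10480059-10528418 and Rfx5 at chr3:94954075-94961561, both on the plus strand. H2-DMa overlaps Brd2, CR974462.4 and the pseudogene Gm20493 on the other strand, and CR974462.3 on its own strand, where strand would not separate reads. Ciita overlaps Dexi, and H2-Oa and Rfx5 each overlap an antisense gene. Whether the counting used strand is not given in the sources used here, so that reads of such overlapping pairs may be shared.

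Short elements of the promoter windows are shown because X and Y boxes are where RFX and NF-Y are known to bind MHCII genes. RefSeq promoter windows (GRCm38.p6, 250 bases before to 50 bases after a start) were matched for 6 of the 7 genes and searched on both strands for X-like letters (CCNANN followed directly by AACNNA) and Y-like letters (TGATTGG), which were chosen after these promoters had been read. The matches are in capitals, 5′ to 3′ on the plus strand of chromosome 17.
H2-Oa X-like, chr17:34092296-34092318: ttgCCCAGCAACAAAcccattat
H2-DMb2 X-like, chr17:34145119-34145141: ttaCCTATTAACCGAtgatgcta
H2-DMb1 X-like, chr17:34153090-34153112: ttaCCTAGTAACTGAtgatgcta
H2-Ob X-like, chr17:34238811-34238833: ctgCCTAGCAACAAAtgatgcaa
H2-Oa Y-like, chr17:34092331-34092343: ctcTGATTGGctg
H2-DMb2 Y-like, chr17:34145154-34145166: tagTGATTGGact
H2-DMb1 Y-like, chr17:34153125-34153137: cagTGATTGGtct
H2-Ob Y-like, chr17:34238843-34238855: tctTGATTGGtta

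The X-like match began 80 bases before the RefSeq start in H2-Oa, 127 in H2-DMb2, 98 in H2-DMb1 and 91 in H2-Ob, with the Y-like match downstream of it in each. Of 32851 promoter windows, 3.00% held the X-like letters, 7.82% the Y-like letters and 36 (0.110%) held both within 40 bases of each other, these 4 genes among them. As the letters and the spacing were set after these promoters had been read, this share is not a test. Among genes with symbols beginning with H2-, only these 4 held the pair, and H2-Aa, H2-Ab1 and H2-Eb1 were not matched. The windows of H2-DMa held neither, and that of Rfx5 held only Y-like letters. A window without the letters is therefore not shown to lack X or Y boxes. Ciita was not in the promoter table. By the GENCODE annotation, which holds further transcripts, both elements of H2-DMb1 and the Y-like element of H2-Oa fell in an exon, and the elements of H2-DMb2 lay within the gene but in no exon. A match is a description of letters, and binding was not measured.

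The level of a gene is given as UMIs per 1000000 UMIs summed over a gate (CPM), with an exact 95% Poisson interval that covers counting error only. These 3′ counts do not scale with transcript length, but comparisons between genes still depend on how well each 3′ end was captured. T cells, which should hold little MHCII in mice, serve as the background of free RNA and of unresolved doublets.

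H2-DMa was highest in type 1 and type 2 DCs and lower in B cells and C1q MØs. Among the gates of B cells, DCs, monocytes and MØs it was lowest in patrolling monocytes and Fcgr4-high MØs. Type 1 DCs had 1478 CPM in the CR library and 1484 CPM in the obese library (intervals 1396 to 1564 and 1439 to 1530). Type 2 DCs had 1275 CPM in CR and 1314 CPM in obese, and the intervals of the 2 DC types did not overlap in either library. B cells had 727 CPM (666 to 792) in CR and 721 CPM (664 to 782) in obese. B cells load the antigen that their receptor has taken up, and MØs that of engulfed material. Resident MØs had 455 CPM in CR and 656 CPM in obese. Lipid-associated MØs, which express Trem2 and Gpnmb, had 402 CPM in CR and 500.03 CPM in obese. Other C1q MØs had 653 CPM in CR and 898 CPM in obese. B cells thus stood above the other C1q MØs in CR, with overlapping intervals, and below them in obese, without overlap. Classical monocytes, the circulating precursors of many tissue MØs, had 439.6 CPM in CR and 515 CPM in obese, within the range of the C1q MØs. Patrolling monocytes had 155 CPM in CR and 146 CPM in obese. Fcgr4-high MØs had 128 CPM in CR and 280.3 CPM in obese, against 59.1 and 127 CPM in T cells. Their intervals lay above those of T cells in both libraries. In cells thinned to 1500 UMIs, H2-DMa had a UMI in 64.6% of CR and 64.5% of obese B cells, in 90.5% and 88.2% of type 1 DCs and in 46.1% and 58.9% of C1q MØs, against 4.97% and 11.7% of T cells (median depths before thinning 2675 and 3326.5 UMIs in T cells, 7062.5 and 7775.5 UMIs in C1q MØs). Without thinning the shares were 77.4% of CR and 90.2% of obese C1q MØs, against 15.2% and 25.0% of T cells.

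**Figure D1:**
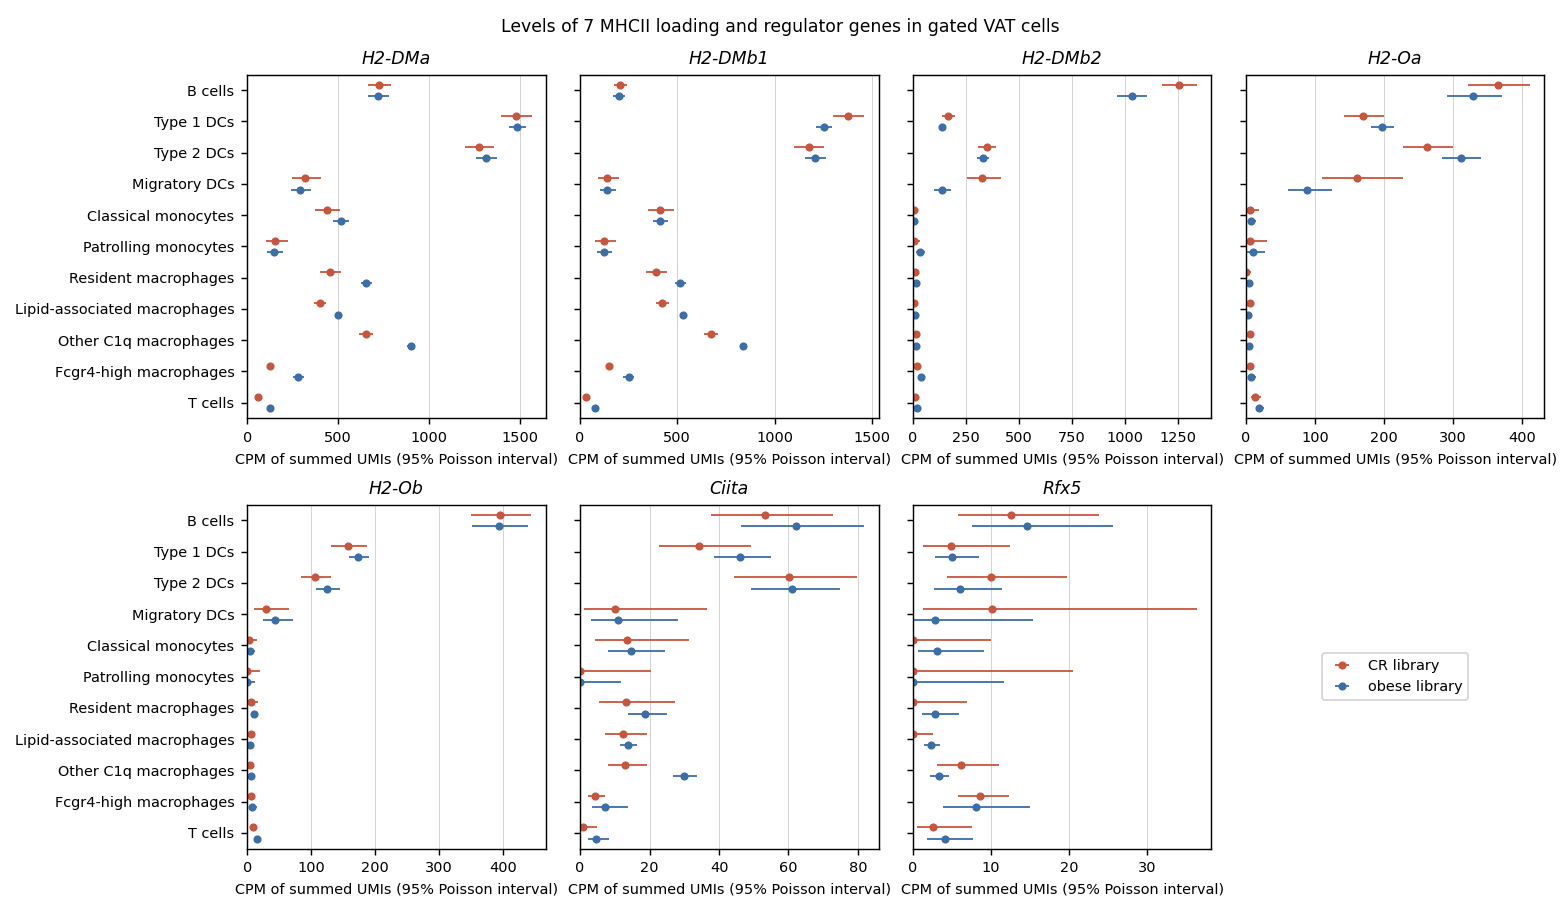
Levels of the 7 genes by gate. Each panel plots CPM of summed UMIs (x axis, linear, with 95% Poisson intervals) for 11 gates, with the CR library above the obese library. H2-DMb1 reached 1379.7 and 1252 CPM in type 1 DCs and 205 and 199 CPM in B cells, while H2-DMb2 reached 1258 and 1034 CPM in B cells and 166 and 137 CPM in type 1 DCs.

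The β chain genes were distributed differently across the gates. H2-DMb1 followed H2-DMa and was the more abundant β chain gene in type 1 and type 2 DCs, monocytes and MØs. Its level was 1379.7 CPM in CR and 1252 CPM in obese type 1 DCs, and 1175 and 1209 CPM in type 2 DCs. In B cells it reached 205 CPM (174 to 241) in CR and 199 CPM (169.6 to 232) in obese. Lipid-associated MØs had 421 CPM in CR and 529 CPM in obese, which put these cells above B cells for H2-DMb1 in both libraries. Classical monocytes had 413 CPM in CR and 412 CPM in obese.

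H2-DMb2 was the more abundant β chain gene in B cells, with 1258 CPM (1177 to 1343) in CR and 1034 CPM (965 to 1106) in obese. Type 2 DCs had 347 CPM in CR and 328 CPM in obese, and type 1 DCs had 166 CPM in CR and 137 CPM in obese. No interval of B cells overlapped that of any other gate, and type 2 DCs stood above type 1 DCs without overlap. MØs as a whole had 13.7 CPM in CR and 13.1 CPM in obese, and classical monocytes had 2.70 CPM (1 UMI) and 5.19 CPM (5 UMIs), against 7.70 and 18.5 CPM in T cells. A level of H2-DMb2 above that of T cells was therefore not detectable in classical monocytes, and C1q MØs, at 10.3 CPM in CR and 11.8 CPM in obese, had intervals that overlapped those of T cells. In obese patrolling monocytes 9 of the 10 UMIs of H2-DMb2 came from 1 cell, and its level was 3.26 CPM without that cell, against 31.8 CPM with it.

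Of all H2-DMb UMIs, H2-DMb2 made up 86.0% (83.7 to 88.0, exact binomial) in CR and 83.9% (81.4 to 86.1) in obese B cells. The share was 18.6% in CR and 14.7% in obese DCs, and 3.78% and 2.00% in MØs, where C1q MØs alone had 1.88% and 1.75% and Fcgr4-high MØs 10.6% (8.21 to 13.4) and 12.5% (9.26 to 16.5). With clusters in place of gates the obese B cells stood at 73.8%. It differed among DCs, with 10.7% in CR and 9.88% in obese type 1 cells, and 22.8% and 21.3% in type 2 cells. Migratory DCs, mature cells that express Ccr7, had the highest share outside B cells, at 70.7% (60.2 to 79.7) of 92 UMIs in CR and 49% (38.9 to 59.2) of 100 UMIs in obese. B cell markers were a small part of the DC gates, with 10 listed genes summing to 9654 and 9024 CPM in B cells, 42.9 and 48.0 CPM in DCs (9 of 10 genes with a UMI in each library, Fcmr at 0 in CR and Pax5 at 0 in obese), and 80.6 and 13.8 CPM in migratory DCs (4 of 10 genes in each library, with Ebf1, Fcmr and Pax5 among those at 0 in both). In Fcgr4-high MØs these markers summed to 377 CPM in CR (Fcmr at 0) and 337 CPM in obese. Their part in the H2-DMb2 share of Fcgr4-high MØs was not tested. H2-DMb1 and H2-DMb2 are close copies and could share reads. The main transcripts (1404 and 1424 bases) were 76.3% identical over their whole length and 66.6% identical over the last 300 bases, where the longest shared run was 23 bases.

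**Figure D2:**
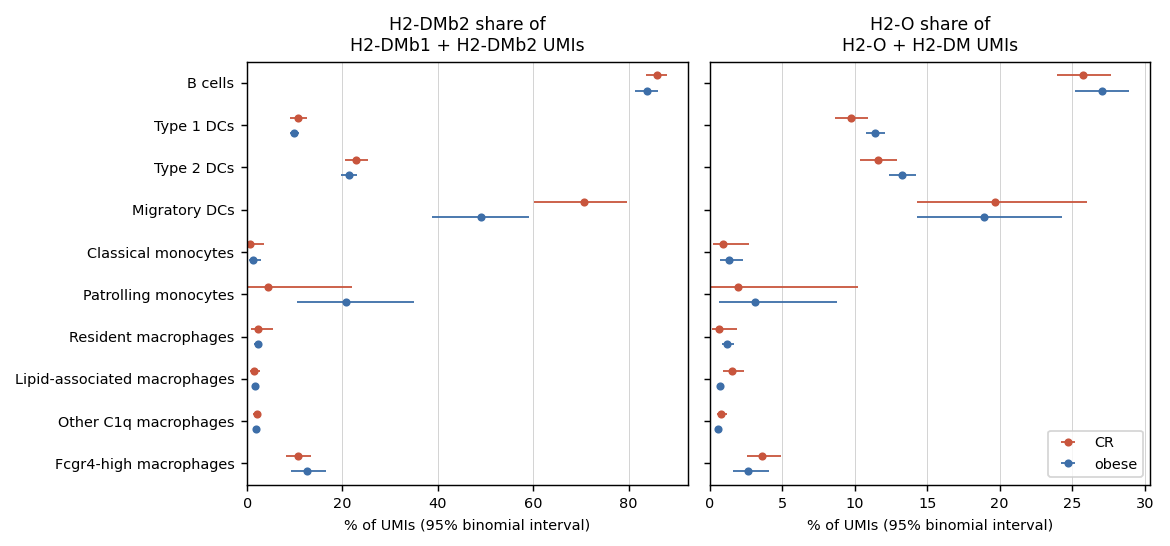
Division of H2-DM and H2-O transcripts by gate. The left panel plots the share of H2-DMb UMIs that were H2-DMb2 and the right panel the share of H2-O and H2-DM UMIs that were H2-O (x axes in percent, with 95% binomial intervals), CR above obese. B cells stood at 86.0% and 83.9% on the left and at 25.8% and 27.0% on the right.

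The α chain gene and the summed β chain genes were of similar level in most gates, and B cells had the lowest α share. H2-DMa made up 33.2% (30.9 to 35.6) of H2-DM UMIs in CR and 36.9% (34.5 to 39.3) in obese B cells. In DCs the share was 47.1% in CR and 49.7% in obese, and in MØs 48.1% and 50.6%. As an α and a β chain must pair in 1 cell, their joint detection was counted after thinning. Both were found in 58.5% of CR and 58.1% of obese B cells, and in 75.7% and 76.0% of type 1 DCs. Both β chain genes were found together in 26.4% of CR and 21.5% of obese B cells, so that H2-DMb1 was not confined to B cells without H2-DMb2.

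H2-Oa and H2-Ob, the chains of the inhibitor, were highest in B cells and DCs. H2-Oa had 365 CPM (322 to 412) in CR and 329 CPM (291 to 371) in obese B cells. It had 262 CPM in CR and 311 CPM in obese type 2 DCs, and 169 and 197 CPM in type 1 DCs. H2-Ob had 395 CPM in CR and 394 CPM in obese B cells, and here the order of the DCs was the other way round, with 157 CPM in CR and 174 CPM in obese type 1 cells and 105 and 126 CPM in type 2 cells. H2-Oa therefore made up 51.9% of H2-O UMIs in CR and 53.1% in obese type 1 DCs, against 71.3% and 71.2% in type 2 DCs, with intervals that did not overlap. In B cells the division was near even, with 48.0% in CR and 45.5% in obese. Migratory DCs had 161 CPM of H2-Oa in CR and 88.2 CPM in obese, on 32 UMIs in each library.

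Monocytes and MØs held H2-O at or below the level of T cells. Whether T cells express H2-O themselves was not tested, so that their level may be more than a background here. Group 2 innate lymphoid cells, another lymphoid gate, had 117 CPM of H2-Oa in CR and 71.1 CPM in obese. MØs had 5.21 CPM of H2-Oa in CR and 4.06 CPM in obese, against 13.7 and 19.4 CPM in T cells. H2-Ob had 5.62 CPM in CR and 5.76 CPM in obese MØs, against 8.56 and 14.9 CPM in T cells. No UMI of H2-Ob was found in patrolling monocytes of either library, which allows levels of up to 16.6 CPM in CR and 9.53 CPM in obese (3 counts of the total). Relative to H2-DM, the inhibitor was most abundant in B cells among the gates of the 4 classes, although their interval overlapped that of migratory DCs in CR. The share of H2-O among H2-O and H2-DM UMIs was 25.8% (23.9 to 27.7) in CR and 27.0% (25.2 to 28.9) in obese B cells, 9.75% and 11.4% in type 1 DCs, 11.6% and 13.3% in type 2 DCs, 19.7% and 18.9% in migratory DCs, and 0.995% and 0.691% in C1q MØs. After thinning, a UMI of either H2-O gene was found in 62.7% of CR and 65.7% of obese B cells, and in 43.3% and 44.7% of type 2 DCs.

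Ciita was a low transcript and was highest in B cells and in type 1 and type 2 DCs. It had 53.1 CPM (37.6 to 72.9, 38 UMIs) in CR and 62.2 CPM (46.3 to 81.8, 51 UMIs) in obese B cells. Type 2 DCs had 60.2 CPM in CR and 61.1 CPM in obese, and type 1 DCs had 34.1 and 46.1 CPM. The intervals of these 3 gates overlapped in both libraries. Classical monocytes had 13.5 CPM in CR and 14.5 CPM in obese, and C1q MØs had 12.7 and 21.4 CPM. Fcgr4-high MØs had 4.29 CPM in CR and 7.31 CPM in obese, and T cells 0.856 CPM (1 UMI) and 4.50 CPM (10 UMIs). In patrolling monocytes no UMI of Ciita was found in 55 CR and 80 obese cells, while 51 and 94 UMIs of H2-DM were counted in the same gate. These H2-DM UMIs came from 15 CR and 35 obese cells, with 23 and 19 of them in 1 cell each. A count of 0 for Ciita allows up to 16.6 CPM in CR and 9.53 CPM in obese, so that a level like that of classical monocytes was not detectable in the CR cells. Migratory DCs had 10.1 CPM (2 UMIs) in CR and 11.0 CPM (4 UMIs) in obese, although the MHCII chains reached 67657 and 53696 CPM there.

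Rfx5 was near the limit of detection, with 90 UMIs in all kept CR cells and 153 in all kept obese cells. Among gates of at least 25 cells B cells had the highest level, at 12.6 CPM (5.75 to 23.9) in CR and 14.6 CPM (7.57 to 25.6) in obese. DCs had 7.71 CPM in CR and 5.17 CPM in obese, and MØs 5.62 and 3.05 CPM, against 2.57 and 4.05 CPM in T cells. No UMI was found in CR monocytes, which allows up to 5.44 CPM, and 3 UMIs (2.35 CPM) were found in obese monocytes. Each neighbouring pair of gates in the order of Rfx5 levels overlapped in its intervals.

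The profiles of the 7 genes were compared across 30 sums (1 for each gate and library with at least 25 cells). The points share libraries, and the values of Pearson's r on log2(CPM + 5) are a description. H2-DMa was most like H2-Ab1 (r = 0.95), H2-Aa (0.94) and Cd74 (0.94), the chains it serves. H2-DMb1 was most like H2-DMa (0.92), H2-Ab1 (0.91) and Ppfia4 (0.91), whereas its r with H2-DMb2 was 0.38. H2-DMb2 was most like Siglecg (0.95), a sialic acid receptor of B cells, H2-Ob (0.90) and Kynu (0.87). H2-Ob was most like Siglecg (0.92), H2-DMb2 (0.90) and Gm20506 (0.89). H2-Oa was most like Ap1s3 (0.90), H2-Ob (0.88) and Siglecg (0.87). Ciita was most like H2-DMa (0.88), H2-Ab1 (0.88) and Pkib (0.87). Rfx5 reached no r above 0.77, with Bach2, and was followed by Sap30bp and Tmem138 at 0.75 each.

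The question of the CR library was how these transcripts stood after 2 weeks of reduced intake. Ratios are log2 of CR over obese with 5 CPM added to each side, with exact conditional 95% intervals that cover counting error only. A gene was read against a limit of 2-fold where its UMIs in the 2 libraries came to 20 or more and where either library reached 50 CPM.

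In B cells the H2-DM sum had 2190 CPM in CR and 1954 CPM in obese (log2 0.16, interval 0.06 to 0.27). H2-DMb2 stood at log2 0.28 (0.15 to 0.42). The other H2-DM genes had intervals that held 0, with H2-DMa at 0.01 (−0.16 to 0.18) and H2-DMb1 at 0.05 (−0.28 to 0.37). So did the inhibitor genes, with H2-Oa at 0.14 (−0.10 to 0.39) and H2-Ob at 0.00 (−0.23 to 0.24). Ciita stood at −0.21 (−0.80 to 0.37), on few UMIs. None of the 6 members read passed 2-fold, where 0.761% of 2627 genes were lower and 1.9% were higher in CR by 2-fold or more. The H2-O sum had 760.2 CPM in CR and 724 CPM in obese (log2 0.07, −0.10 to 0.24).

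In DCs the H2-DM sum was the same within a narrow interval, at 2680 CPM in CR and 2687 CPM in obese (log2 0.00, −0.05 to 0.04). H2-DMa stood at −0.08 (−0.15 to −0.01) and H2-DMb1 at 0.00 (−0.07 to 0.08). H2-DMb2 stood at 0.39 (0.24 to 0.55) over all DCs, but at 0.08 (−0.13 to 0.29) in type 2 cells, which made up 97 of 200 CR and 188 of 498 obese DCs, and at 0.26 (−0.02 to 0.54) in type 1 cells. The H2-O sum had 329.8 CPM in CR and 373 CPM in obese (log2 −0.18, −0.31 to −0.04), but stood at 0.028 in thinned cells. A value below 0 was found for both H2-O genes in type 1 and in type 2 cells, where 4 values lay between −0.14 and −0.24, of which H2-Oa in type 2 cells (−0.24, −0.48 to −0.01) had an interval without 0. None of 5 members read passed 2-fold, against 0.161% of 2491 genes lower and 0.723% higher in CR. The median of all genes read was log2 0.11 in DCs and also 0.11 in MØs, and TMM scaling moved ratios by 0.18 in DCs and 0.19 in MØs, so that ratios of this size followed the choice of scale. Under TMM scaling the H2-DM sum of DCs stood at −0.19 and H2-DMb2 at 0.21.

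In migratory DCs H2-DMb2 was higher in CR, with 328 CPM (253 to 418, 65 UMIs) in 29 CR cells and 135 CPM (99.9 to 179, 49 UMIs) in 56 obese cells (log2 1.25, 0.70 to 1.80). The UMIs came from 10 of 29 CR cells, with 18 in 1 cell, and from 19 of 56 obese cells, with at most 6 in 1 cell. Without these highest cells the levels were 242 CPM in CR and 120.3 CPM in obese (log2 0.98), and the 2-fold limit was no longer passed. H2-DMa (0.12, −0.35 to 0.57), H2-DMb1 (−0.05, −0.75 to 0.63) and H2-Ob (−0.48, −1.81 to 0.79) had intervals that held 0 in these cells. H2-Oa was also higher in CR (0.83, 0.11 to 1.55), and stood at 0.69 without the highest cell of each library. So were the H2-DM sum (0.46, 0.15 to 0.76) and the sum of H2-Aa, H2-Ab1, H2-Eb1 and Cd74 (0.33, 0.30 to 0.37). With all cells, H2-DMb2 was 1 of 4 members read past 2-fold and higher in CR, where 5.21% of 2342 genes were higher and 2.9% lower. The B cell markers moved in the same direction there, at 80.6 CPM in CR and 13.8 CPM in obese, and their part in the result was not tested.

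In monocytes the H2-DM sum had 668 CPM in CR and 776 CPM in obese (log2 −0.22, −0.39 to −0.04). Within classical cells it was 855 and 932 CPM (−0.12, −0.31 to 0.06), and within patrolling cells 283 and 299 CPM (−0.08, −0.59 to 0.42), so that neither gate alone had an interval without 0. Classical cells were 48 of 103 CR monocytes and 146 of 226 obese monocytes. Neither of 2 members read passed 2-fold, against 0.468% of 2777 genes lower and 1.44% higher in CR. The monocyte value was −0.87 with clusters in place of gates, which held fewer monocytes (49 CR and 96 obese cells). The gated value turned to 0.046 when the level of T cells in the same library was subtracted.

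MØs had the largest difference in H2-DM of the 4 gated classes. With clusters in place of gates, however, MØs stood at −0.86 and the smaller set of monocytes (49 CR and 96 obese cells) at −0.87. In gated MØs the sum had 700 CPM in CR and 1322 CPM in obese (log2 −0.91, −0.96 to −0.87). H2-DMa stood at −0.98 (−1.04 to −0.92), H2-DMb1 at −0.86 (−0.92 to −0.80) and Ciita at −0.91 (−1.16 to −0.65, 63 and 474 UMIs). H2-DMb2 stood at 0.05 (−0.20 to 0.29) over all MØs, at −0.14 (−0.48 to 0.21) in C1q MØs and at −0.86 (−1.34 to −0.36) in Fcgr4-high MØs, where it had 17.5 CPM in CR and 35.8 CPM in obese, against 7.70 and 18.5 CPM in T cells (log2 −0.89, −1.56 to −0.15). Neither of the 2 members read was 2-fold lower in CR, where 0.805% of 2734 genes were lower and 5.49% were higher by 2-fold or more. Rfx5 stood at 0.40 (0.13 to 0.67) over all MØs, and at 0.02 (−0.30 to 0.41) in C1q MØs alone.

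The make-up of the MØ class differed between the libraries. Fcgr4-high MØs, a group that expresses the IgG receptor gene Fcgr4 with Lipg and Pecam1, were 19.99% of CR cells and 4.66% of obese cells, and their H2-DM sum was 293 CPM in CR and 566 CPM in obese. C1q MØs alone had 1075 CPM of H2-DM in CR and 1365 CPM in obese (log2 −0.34, −0.39 to −0.30), against −0.91 for all MØs. Each kind of C1q MØ had a lower H2-DM sum in CR, at −0.46 (−0.61 to −0.32) in resident, −0.32 (−0.41 to −0.24) in lipid-associated and −0.39 (−0.45 to −0.32) in other cells. In C1q MØs neither of 2 members read passed 2-fold, and 0.0774% of 2584 genes were lower and 1.47% higher in CR. Ciita stood at −0.58 (−0.90 to −0.26) in C1q MØs, with −0.98 (−1.44 to −0.51) in other C1q cells and −0.12 (−0.65 to 0.41) in lipid-associated cells.

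Within Fcgr4-high MØs the H2-DM sum stood at −0.94 (−1.08 to −0.80). H2-DMa, at −1.10 (−1.30 to −0.90), was 1 of 2 members read that was 2-fold lower in CR, where 0.931% of 2792 genes were lower and 1.29% higher. H2-DMb1 stood at −0.74 (−0.94 to −0.54). T cells of the same libraries, which are not expected to load MHCII, had 95.9 CPM of H2-DM in CR and 222 CPM in obese (log2 −1.17, −1.47 to −0.89), and 18 of 548 obese T cells but none of 382 CR T cells held 50 or more MHCII chain UMIs after thinning. The part of free RNA and unresolved doublets in the value of Fcgr4-high MØs was not tested. In all MØs, subtracting the level of T cells left the H2-DM sum at −0.86.

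**Figure D3:**
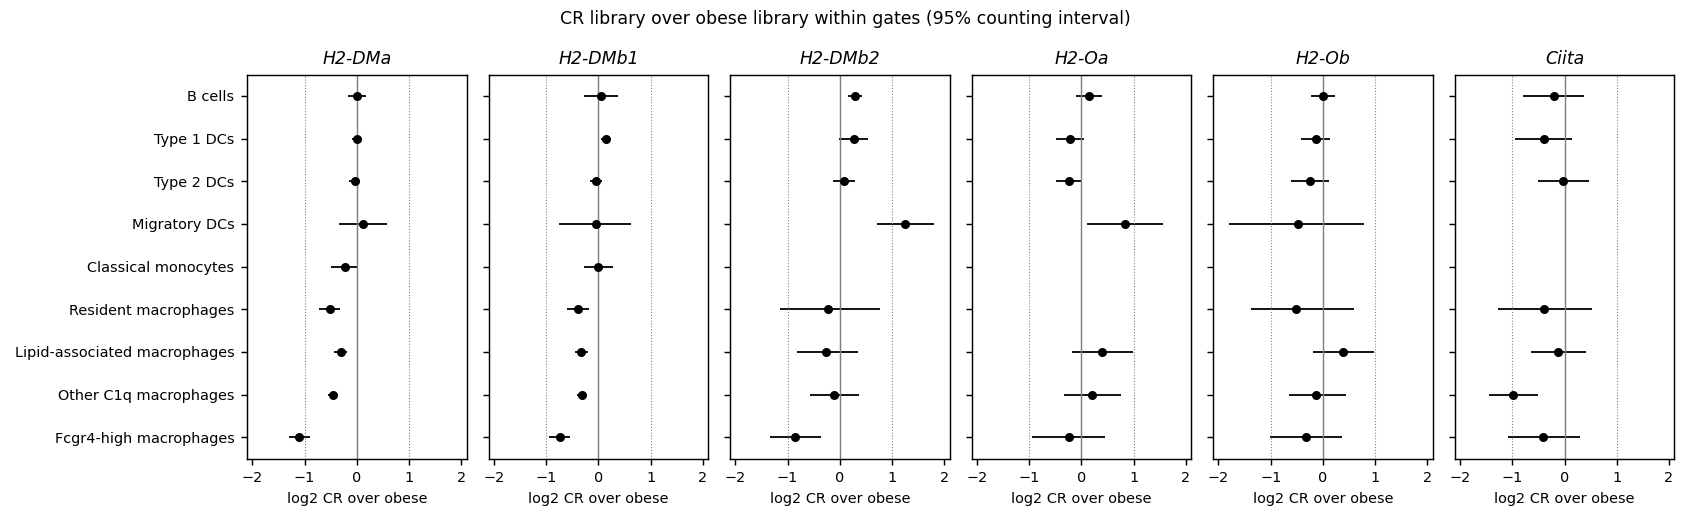
Ratios of the CR library over the obese library within gates. Each panel plots log2 CR over obese (x axis) for 1 gene in 9 gates, with 95% counting intervals, a solid line at 0 and dotted lines at 2-fold. Points are drawn where the UMIs of the 2 libraries came to 20 or more. H2-DMa and H2-DMb1 lay below 0 in all 4 MØ gates, between −0.31 and −1.10, and near 0 in B cells and DCs.

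The H2-DM genes were set beside the molecules they serve. The MHCII chain sum (H2-Aa, H2-Ab1, H2-Eb1 and Cd74) stood at log2 0.07 in B cells, −0.03 in DCs, −0.16 in monocytes, −0.50 in C1q MØs and −1.64 in Fcgr4-high MØs. H2-DM per 1000 chain UMIs was 45.4 in CR and 42.5 in obese B cells, 30.1 and 29.7 in DCs, and 43.8 and 45.6 in monocytes. C1q MØs had 29.0 (28.1 to 29.9) in CR and 26.0 (25.7 to 26.3) in obese. Over all C1q MØs, H2-DM was thus lower in CR by a smaller factor than the chains. Lipid-associated MØs alone had 27.0 (25.5 to 28.5) in CR and 26.7 (26.2 to 27.2) in obese. Resident MØs had 29.2 and 25.9, also with overlapping intervals, and other C1q MØs had 30.1 and 25.6, without overlap. Fcgr4-high MØs had 68.6 (64.5 to 72.9) in CR and 42.4 (39.3 to 45.7) in obese, on chain sums of 4266 and 13340 CPM. T cells, the background, stood the same way round, with 61.3 (50.5 to 73.8) in CR and 31.7 (29.0 to 34.6) in obese, and the part of free RNA in the value of Fcgr4-high MØs was not tested. Migratory DCs had the lowest value of the MHCII-bearing gates, at 11.5 in CR and 10.6 in obese. Ciita per 1000 chain UMIs was 1.10 in CR and 1.35 in obese B cells, 0.483 and 0.533 in DCs, and 0.405 and 0.410 in MØs. The MØ gates differed in direction, with 0.341 in CR and 0.408 in obese C1q MØs, and 1.01 (15 UMIs) and 0.548 (9 UMIs) in Fcgr4-high MØs. The intervals of the 2 libraries overlapped in each case.

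Cells were then compared at like levels of the MHCII chains, after each was thinned to 1500 UMIs. In C1q MØs with 50 or more chain UMIs the mean of H2-DM was 3.04 UMIs per cell (2.81 to 3.29) in CR and 2.79 (2.71 to 2.87) in obese. With 20 to 49 chain UMIs the means were 1.20 in CR and 1.16 in obese, with 5 to 19 they were 0.587 and 0.534, and with 0 to 4 they were 0.282 and 0.315. The intervals of the libraries overlapped at each of these 4 levels. Overlap within such wide groups does not show that the levels were equal. The share of cells at a chain level differed, with 44.8% of CR and 70.3% of obese C1q MØs at 50 or more chain UMIs, and 25.2% and 5.11% at 0 to 4.

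In the same grouping of Fcgr4-high MØs the low chain levels held most cells. Of these cells, 85.9% in CR and 62.9% in obese held 0 to 4 chain UMIs, with means of 0.339 and 0.383 H2-DM UMIs, against 0.111 and 0.159 in T cells at the same chain level. At 50 or more chain UMIs stood 2.51% of CR and 11.0% of obese Fcgr4-high cells, with means of 2.80 and 3.26. The intervals of the libraries overlapped at each level here too. DCs at 50 or more had means of 4.10 in CR and 4.13 in obese, and B cells 3.66 and 3.61. The H2-DM mean in this group was thus higher in DCs than in C1q MØs, without overlap of the intervals in either library. The group has no upper limit, so that the chain level was not held equal between these gates. Over all thinned cells the mean of chain UMIs was 134 in CR and 136 in obese DCs, against 57.1 and 87.7 in C1q MØs.

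**Figure D4:**
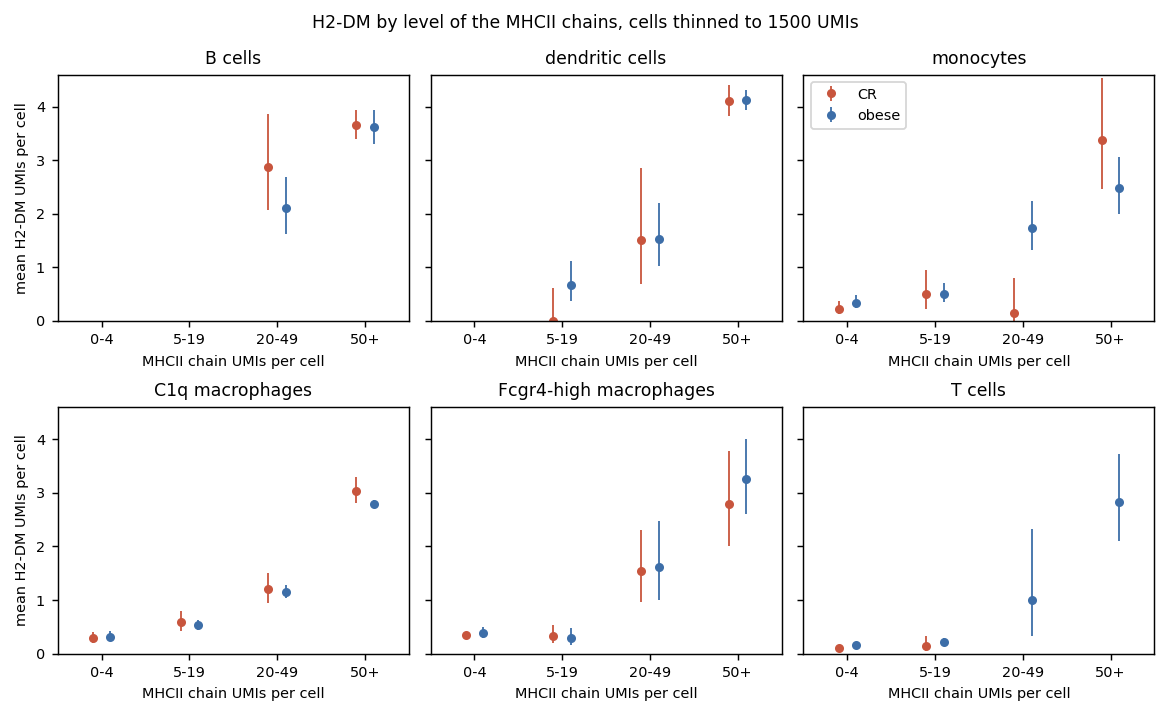
H2-DM at like levels of the MHCII chains. Cells thinned to 1500 UMIs are grouped by their chain UMIs (x axis), and points give the mean H2-DM UMIs per cell (y axis) with 95% Poisson intervals, CR left of obese, for groups of at least 5 cells. In C1q MØs the libraries overlapped in each group, from 0.282 and 0.315 at 0 to 4 chain UMIs to 3.04 and 2.79 at 50 or more.

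A list of 27 other genes of the pathway (MHCII chains, endosomal proteases and reductase, turnover by ubiquitin, and further regulators) was read in the same way. In B cells 0 of 19 genes read passed 2-fold, in DCs 0 of 15, in monocytes 0 of 16 and in C1q MØs 0 of 14, with medians of log2 0.11, 0.11, −0.12 and −0.10 against 0.04, 0.11, 0.04 and 0.06 for all genes. In all MØs 4 of 16 were 2-fold lower in CR and none higher (median −0.27, against 0.11 for all genes), and in Fcgr4-high MØs 4 of 16 were 2-fold lower (median −0.34, against 0.03). In both cases these were H2-Aa, H2-Ab1, H2-Eb1 and Cd74. In Fcgr4-high MØs, H2-Aa had 708 CPM in CR and 2346 CPM in obese (log2 −1.72) and Cd74 had 2206 and 6491 CPM (−1.56). The cysteine protease gene Ctss, whose product trims the invariant chain, stood at −0.15 in the same cells and at 0.12 in C1q MØs. Spi1, which encodes the myeloid factor PU.1, stood at −0.08 in Fcgr4-high and −0.07 in C1q MØs. Irf8, a regulator of type 1 DCs and monocytes, stood at −0.58 (−0.90 to −0.26) in Fcgr4-high MØs, and at −0.59 (−0.96 to −0.23) in monocytes. In B cells Cd83, whose product keeps MHCII from ubiquitination, had 776 CPM in CR and 533 CPM in obese (log2 0.54, 0.35 to 0.72). Ctsl was also higher in CR B cells (109 and 53.7 CPM), while Ifi30 was lower (250 and 450 CPM), each without overlap of intervals. Of the 19 genes read in B cells, 8 stood below 0. Cd83 was higher in CR in Fcgr4-high MØs too (287 and 182 CPM), and lower in C1q MØs (352 and 417 CPM).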

How the data were processed

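Transcripts of CD45+ VAT cells were measured in 1 CR and 1 obese library with v2 Chromium 3′ chemistry. The authors aligned reads to mm10 with Cell Ranger and deposited whole-number UMI counts per gene and barcode, not normalised. The lean library was not analysed here.

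A minimum of 200 genes per cell was set, and cells whose mitochondrial share or log UMI total lay over 3 scaled median absolute deviations above the library's median were removed (mitochondrial limits of 5.58% in CR and 4.84% in obese). A cell was gated when it held a minimum number of a list's markers, for example 4 of 10 for B cells and 7 of 14 for C1q MØs. Of 10 T cell markers 3 were not in the tables. Of the kept cells, 3.85% in CR and 4.90% in obese met no gate, and 289 and 339 gated cells lay at the limit. UMIs were summed per gate and library and given as CPM. Exact Poisson, binomial and conditional 95% intervals cover counting error only. With 1 library per condition no test across samples was possible. A doublet caller marked 0.368% of CR and none of the obese cells and was taken as having failed, so that doublets were left in, and cells with the highest 5% of scores were left out as an alternative.

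All 7 members are named, with the 3 genes most like each (at least 100 UMIs, no markers) and genes of a list of 27. The members and lists were chosen with earlier results of these data known, and the gate limits, the motif letters, the spacing of 40 bases, 2 of the alternatives and the removal of the highest cells in migratory DCs were set after the data were seen. The other alternatives were no cell filter, stricter gates, clusters made without MHCII genes, other totals, TMM, per-cell CPM, thinning, subtraction of the T cell level and pseudocounts of 1 and 20 CPM. Promoters are from RefSeq and coordinates from GENCODE. Python 3.11.15, numpy 2.4.6, scipy 1.17.1, pandas 2.3.3, scanpy 1.11.5 and matplotlib 3.10.9 were used. Of the steps, only the ratio with its interval and some of the gates were run on simulated counts, drawn from the summed profiles. Such counts hold no doublets, no free RNA and no added spread between cells, so that they cannot check for these.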

Additional observations from a re-analysis of the deposited data

Results flagged for a closer look

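The H2-DM sum stood on opposite sides of 0 in different classes. It was log2 0.16 (0.06 to 0.27) in B cells, against −0.22 (−0.39 to −0.04) in monocytes and −0.91 (−0.96 to −0.87) in MØs. The difference between the classes was not tested, since each condition had 1 library, and the monocyte value did not keep its sign when the level of T cells was subtracted.

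H2-DMb2 and other MHCII transcripts were found in a gate outside the comparisons. Erythroid cells, gated by haemoglobin genes and Alas2, had 32.9 CPM (20.4 to 50.3) in CR, against 7.70 CPM in T cells, and 44.5 CPM (33.3 to 58.2) in obese, against 18.5 CPM in T cells. In CR 11 of the 21 UMIs came from 1 cell, and without it the level was 15.8 CPM. In obese 13 of 53 came from 1 cell, and without it the level was 33.9 CPM. The MHCII chain sum was also above that of T cells, with 7021 CPM in CR, against 1564 CPM in T cells, and 12882 CPM in obese, against 7021 CPM in T cells, and 958 of 4482 UMIs in CR and 1473 of 15353 in obese came from 1 cell each. So was the H2-DM sum, with 169 CPM in CR, against 95.9 CPM in T cells, and 402 CPM in obese, against 222 CPM in T cells. Ptprc had a UMI in 18.6% of CR and 33.3% of obese erythroid cells. The 10 B cell markers summed to 37.6 CPM there in CR and 97.3 CPM in obese.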

How the results depend on the processing

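No paired analysis was possible because each condition had 1 library, and for the same reason no replicate could be left out. Of 103 alternative values for the H2-DM and H2-O sums and the H2-DMb2 shares, 73 moved by less than their counting interval, 28 moved further and 2 that had an interval without 0 changed sign. The H2-DM sum of MØs (−0.91) was below 0 in 13 of 13 alternatives, with −0.99 without the cell filter, −0.86 with 1 more marker, −0.86 with clusters, −1.11 with TMM, −1.17 with per-cell CPM, −1.07 with thinned cells, −0.97 without the highest doublet scores, −0.86 with the T cell level subtracted, −0.34 without the Fcgr4-high gate and −0.45 with the gates weighted equally. That of monocytes (−0.22) was −0.87 with clusters (49 CR and 96 obese cells), −0.48 with per-cell CPM, −0.49 with thinned cells and 0.046 with the T cell level subtracted. That of DCs (0.00) was −0.066 with totals without ribosomal, mitochondrial and haemoglobin genes, −0.19 with TMM, 0.068 with the T cell level subtracted and 0.069 with equal weights. That of B cells was 0.27 with the T cell level subtracted. The H2-O sum of DCs (−0.18) was −0.36 with TMM and 0.028 with thinned cells. The H2-DMb2 share of obese B cells was 73.8% with clusters and 86.5% without the highest doublet scores, that of obese DCs 15.8% with clusters, and that of CR DCs 20.5% with thinned cells. In CR MØs it was 2.99% without the highest doublet scores and 1.88% without the Fcgr4-high gate. In obese MØs it was 2.88% with clusters, 1.60% with thinned cells and 1.75% without the Fcgr4-high gate. Of 274 values for single genes, 1 with an interval without 0 changed sign (Rfx5 in MØs, −0.073 with equal weights). Apart from the values without the Fcgr4-high gate and with equal weights, where the construction changes which MØs are counted, the cause of these shifts was not tested. Depth limits Ciita, Rfx5 and H2-O in monocytes, where each of these sums held at most 15 UMIs in a library.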

Other observations

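In group 2 innate lymphoid cells, of which 16 of 44 CR and 5 of 17 obese cells lay at the limit of the gate, H2-Oa was found nearly without H2-Ob. H2-Oa had 117 CPM (15 UMIs) in 44 CR cells and 71.1 CPM (4 UMIs) in 17 obese cells, against 13.7 and 19.4 CPM in T cells. H2-Ob had 1 UMI in these CR cells and 0 in the obese cells, and no UMI of H2-DMb2 or Ciita was found in either library. H2-DMa had 86.1 CPM (11 UMIs) in CR and 125 CPM (7 UMIs) in obese, against 59.1 and 127 CPM in T cells. With 17 obese cells the obese values rest on few molecules.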
